A study of Mus musculus with 6 samples.

Results

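Chemokines and their receptors were examined in cultured fibroblasts of mouse embryos (MEFs), which are cells of the connective tissue, with a WT or an Aff3ir-ORF2-/- genotype. Every gene whose symbol names a CC, CXC, CX3C or C chemokine, one of their receptors, an atypical chemokine receptor or Ccrl2 was taken, which gave 48 of the 17092 genes in the deposited count table. Of these, 30 encode ligands and 18 encode receptors, and the groups are kept apart below. Total RNA of 3 WT and 3 Aff3ir-ORF2-/- samples was sequenced, 1 library each. The knockout mice carried a germline deletion of ORF2 of the nested gene Aff3ir in all tissues, and the strain of the embryos is not given beside the samples. That deletion was made by injecting guide RNAs and Cas9 mRNA into fertilized eggs, followed by intercrosses of heterozygotes. The MEFs were grown in serum-containing medium, and no treatment or flow is named for the sequenced samples. The age and number of embryos behind each library are not given, and nothing says that the libraries came from separate cultures, so the p-values measure only the spread between these samples, which may be technical.

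Chemokines are small secreted proteins that direct the movement of leukocytes along gradients. They act through receptors with several membrane-spanning helices that couple to inhibitory G proteins, while atypical receptors such as Ackr3 bind chemokines without that coupling and take them up. Fibroblasts are known as sources of Cxcl12, Ccl2 and neutrophil attractants of the CXC family, whereas most chemokine receptors are known from blood cells.

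The libraries held 17435133 to 18252330 counts. Differences were tested with the quasi-likelihood method of edgeR, and a gene was called when its Benjamini-Hochberg adjusted p was under 0.05 and its change at least 1.5-fold. Fold changes are Aff3ir-ORF2-/- over WT on the log2 scale, and values in triplets are rounded counts of replicates 1, 2 and 3. The defining fibroblast markers were abundant in both genotypes: 13 genes summed to 30630 to 30770 CPM (counts scaled to the effective library size) in WT and to 25690 to 32540 in Aff3ir-ORF2-/- libraries, with 2 called higher and 1 lower. Of 18 macrophage markers, 17 could be tested and these 17 were all called higher, against 14.2% of all tested genes. Their summed level was 22.9 to 26.2 CPM in WT, and 1365, 1892 and 2332 CPM in Aff3ir-ORF2-/- replicates 1, 2 and 3. C1qa, C1qb, Fcgr1 and Aif1 were at 0 in all WT libraries, and none of the 18 was at 0 in all the knockout libraries. A marker at 0 in WT can pass a filter on low counts only through the knockout libraries, so it can only come out higher. The same holds for markers with fewer than 10 counts in every WT library, among them Tyrobp, Trem2 and Spi1. The count of 17 therefore describes the tested markers and is raised by such genes. Adgre1, which encodes F4/80, was counted 8, 11 and 10 times in WT and 552, 935 and 880 times in Aff3ir-ORF2-/- cells. The part of the macrophage markers in the chemokine results below was not tested. In bulk samples like these, fewer cells of a type and less RNA per cell cannot be told apart. T cell, B cell and neutrophil markers each summed to 1.45 CPM or less in every library. The neutrophil sum was 0.284 to 0.58 CPM in WT and 0.859 to 1.15 CPM in Aff3ir-ORF2-/- libraries, and its only tested marker, S100a8, was called higher. Endothelial markers, of which 3 of 5 tested were higher and 1 was lower, summed to 8.12 to 8.93 CPM in WT and 16.5 to 21.1 CPM in Aff3ir-ORF2-/- libraries, and dendritic cell markers to 2.05 to 3.03 and 4.61 to 5.07 CPM. Because Aff3ir was not analysed here, the labels were not checked by the targeted transcript.

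Of the 30 ligands, 22 passed the filter on low counts and were tested. In Aff3ir-ORF2-/- MEFs, 10 of the 22 were higher, 4 were lower and 8 were not called, so 45.5% were higher against 14.2% of all 13075 tested genes, and 18.2% were lower against 7.27%. The median log2 fold change of the tested ligands was 0.54, and that of all tested genes was 0.0056. Of the 18 receptors, 5 were tested: 4 were higher, none was lower and 1 was not called, with a median log2 fold change of 2.55. All 5 receptor estimates were above 0 in this fit, that of Cxcr6 only barely (0.0061), and Cxcr6 was at -0.0084 with limma voom. DESeq2 and limma voom also called 0 receptors lower, which covers only receptors that passed the filter. Over ligands and receptors together, 18 of 27 tested members were called, against 21.4% of all genes. For 19 of the 27, or 70.4%, all normalised counts of one genotype lay above those of the other. The same held for 66% of all tested genes, so this share was near the background. The members below the filter reached at most 18 counts in any library, and such a filter keeps a gene that is high in a single genotype. The receptors Cxcr4 and Cx3cr1 and the ligands Ccl3, Ccl6, Ccl20 and Cxcl2 had fewer than 10 counts in every WT library. They passed the filter only through the knockout libraries and could only come out higher. These shares therefore describe the tested members and not all 48.

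**Figure D1:**
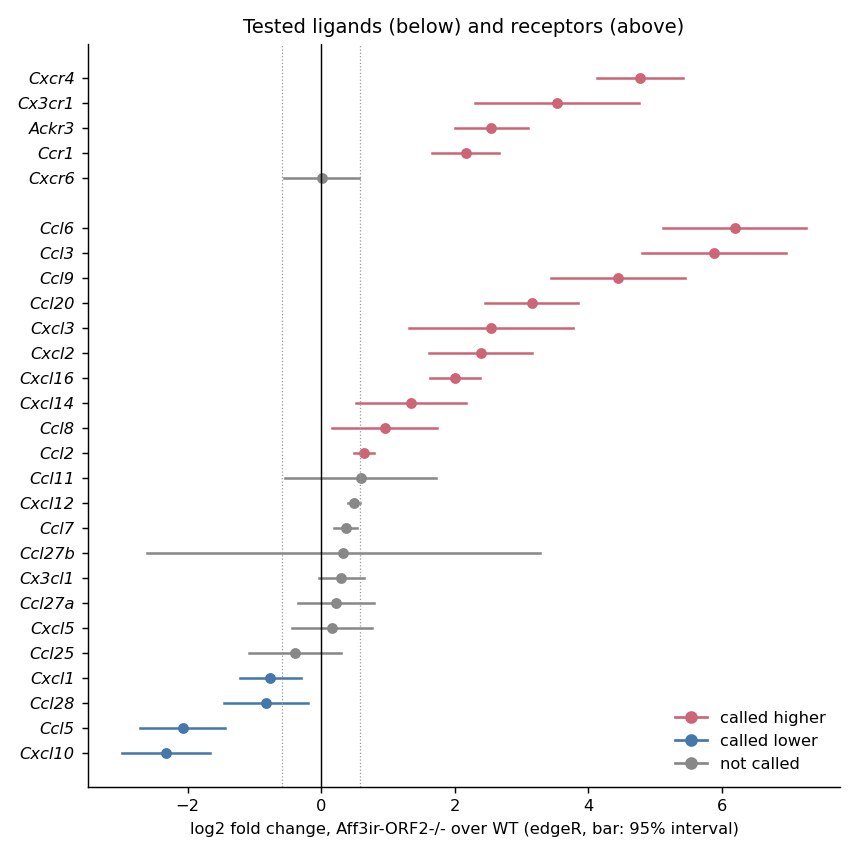
Log2 fold change of the 27 tested members, Aff3ir-ORF2-/- over WT, with 95% intervals from edgeR, ligands in the lower block and receptors in the upper one. Dotted lines mark a 1.5-fold change; the estimates run from -2.33 (Cxcl10) to 6.19 (Ccl6), and 4 of the 5 receptors lie well to the right.

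By level, a few ligands made up nearly all chemokine mRNA. Per kilobase of the longest transcript, Ccl2, Ccl7, Cxcl5, Cxcl12 and Cxcl14 held 93.8% of the summed ligand level in WT and 90.0% in Aff3ir-ORF2-/- cells. Ccl2 led in both, with a mean of 133 CPM per kilobase in WT and 207 in Aff3ir-ORF2-/- cells. Ccl7 followed at 109 and 140, above Cxcl5 (37.7 and 42.0) and Cxcl12 (34.7 and 48.8), which overlapped each other between libraries in both genotypes. Cxcl12 was divided by 5627 bases, its longest transcript, and could rank higher if a shorter one were the main one. Before this division Cxcl12 had the highest mean, 195 CPM in WT and 275 in Aff3ir-ORF2-/- cells. Cxcl14 came next at 12.7 and 32.3 CPM per kilobase. Below these, the order of the mean levels was rearranged. Ccl6 stood at rank 22 of the 30 ligands in WT and rank 6 in Aff3ir-ORF2-/- cells, Ccl9 at 16 and 7, and Ccl3 at 24 and 10. In the opposite direction, Cxcl1 went from rank 6 to 13, Ccl5 from 7 to 20 and Cxcl10 from 10 to 23. Without regard to length, the ligands summed to 534.7 to 581.7 CPM in WT and 771.3 to 888.5 CPM in Aff3ir-ORF2-/- libraries, and the receptors to 6.81 to 7.40 and 28.6 to 41.9 CPM.

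**Figure D2:**
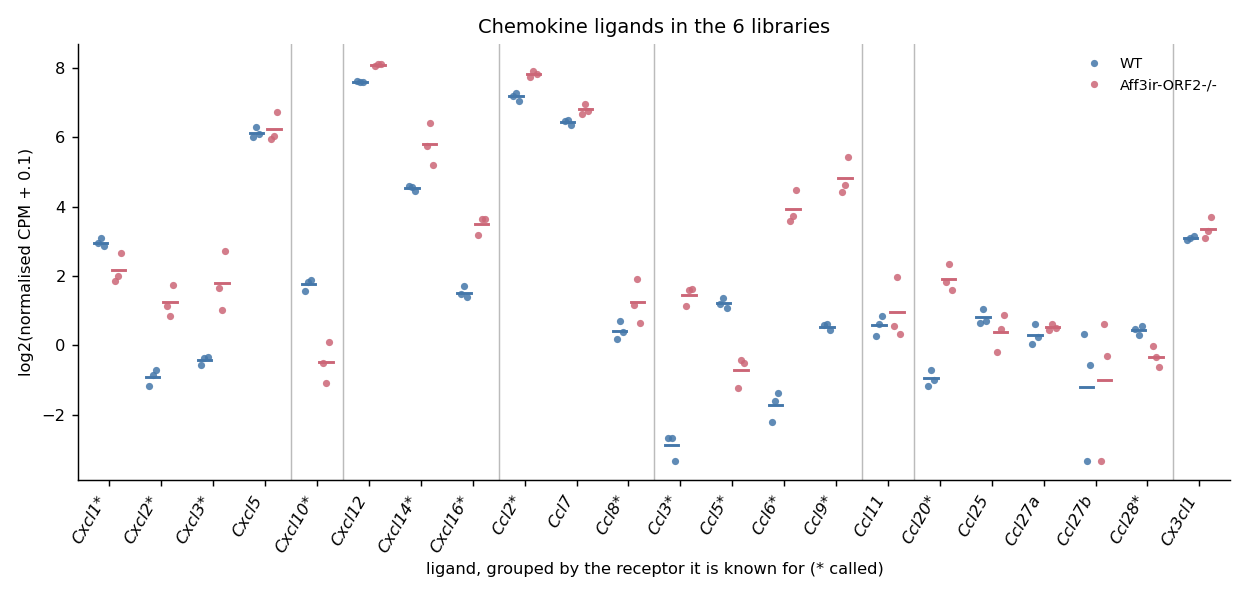
Level of each tested ligand in the 6 libraries, as log2 of normalised CPM plus 0.1, with 1 point per library and a bar at the mean of each genotype. Vertical lines part the ligands by the receptors they are known for, except that Ccl8 is set beside Ccl2 and Ccl7 as a related ligand. Asterisks mark called genes. Ccl2, Ccl7, Cxcl5 and Cxcl12 stand at the top in both genotypes, while Ccl3, Ccl6 and Ccl9 are the ligands furthest apart between them.

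The CXC ligands with the ELR motif, which attract neutrophils through Cxcr2, did not move one way. Cxcl1, Cxcl2 and Cxcl3 lie in a single cluster on chromosome 5 and are closely related. The 250 bases upstream of their transcription starts are shown because these neighbours differed in direction. Those of the interferon-inducible Cxcl10, which lies outside that cluster on the same chromosome, are set beside them. They are the RefSeq windows on GRCm38.p6, written 5′ to 3′ on the strand of the gene: chr5:90890995-90891244 (+) for Cxcl1, chr5:90903649-90903898 (+) for Cxcl2, chr5:90785851-90786100 (+) for Cxcl3 and chr5:92348890-92349139 (-) for Cxcl10. Capitals mark matches to the κB pattern GGNNNTTCC on either strand, the kind of site that NF-κB proteins bind.
Cxcl1: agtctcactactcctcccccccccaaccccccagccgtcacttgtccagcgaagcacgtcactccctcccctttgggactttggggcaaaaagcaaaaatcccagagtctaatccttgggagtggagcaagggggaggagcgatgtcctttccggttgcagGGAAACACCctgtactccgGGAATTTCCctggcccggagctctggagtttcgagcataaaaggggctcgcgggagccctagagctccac
Cxcl2: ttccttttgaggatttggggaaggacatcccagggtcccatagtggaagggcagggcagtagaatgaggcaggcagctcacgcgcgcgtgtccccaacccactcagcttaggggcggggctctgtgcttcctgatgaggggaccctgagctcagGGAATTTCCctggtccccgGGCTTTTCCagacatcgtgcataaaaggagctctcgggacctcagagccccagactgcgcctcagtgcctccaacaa
Cxcl3: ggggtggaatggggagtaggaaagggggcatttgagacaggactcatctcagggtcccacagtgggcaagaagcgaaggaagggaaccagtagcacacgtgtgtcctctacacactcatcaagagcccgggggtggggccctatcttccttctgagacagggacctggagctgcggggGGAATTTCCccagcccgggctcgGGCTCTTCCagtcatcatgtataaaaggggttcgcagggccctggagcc
Cxcl10: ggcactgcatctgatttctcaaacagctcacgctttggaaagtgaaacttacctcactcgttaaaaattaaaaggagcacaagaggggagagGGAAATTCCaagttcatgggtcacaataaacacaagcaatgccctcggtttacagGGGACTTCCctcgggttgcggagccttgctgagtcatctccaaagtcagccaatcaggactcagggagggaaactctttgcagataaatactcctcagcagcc
Cxcl1, Cxcl2 and Cxcl3 share the same match, GGAATTTCC, whose first base lies 70, 96 and 72 bases before the start. Aligned in pairs, the windows of Cxcl1, Cxcl2 and Cxcl3 were 50.5% to 56.1% identical, while each of them was 48.2% to 49.5% identical to that of Cxcl10. The Cxcl10 window also held GAAAGTGAA, a match to the interferon response pattern GAAANNGAA, 213 bases before the start, and TGAGTCA, a match to the AP-1 pattern TGANTCA, 74 bases before it. A κB match was found in 15.7% of all 32851 mouse promoter windows of this length, an interferon pattern in 7.13% and an AP-1 pattern in 6.75%. The 37 members with a window had 45 windows, of which 15 (33.3%) held a κB match, 7 (15.6%) an interferon match and 5 (11.1%) an AP-1 match. Among the called members, a κB match stood before 4 of 12 higher and 2 of 3 lower genes with a window. A match is a run of letters and was not tested for binding.

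Cxcl2 was counted 6, 8 and 9 times in WT and 38, 32 and 59 times in Aff3ir-ORF2-/- cells. The log2 fold change of Cxcl2 was 2.39 (SE 0.34, edgeR adjusted p = 0.000291). Cxcl3 was counted 10, 12 and 12 times in WT and 56, 36 and 119 times in Aff3ir-ORF2-/- cells. Every knockout library was above every WT library for both genes, and Cxcl3 spread widely, since its log2 fold change of 2.55 (SE 0.52, edgeR adjusted p = 0.00462) was 1.93 without Aff3ir-ORF2-/- replicate 3. Cxcl1, the most abundant of the 3, went the other way. It was counted 131, 149 and 125 times in WT and 64, 73 and 115 times in Aff3ir-ORF2-/- cells, with no overlap. Its log2 fold change was -0.76 (SE 0.20, edgeR adjusted p = 0.0103). Cxcl5, the most abundant ELR ligand, was counted 1101, 1381 and 1190 times in WT and 1120, 1233 and 1969 times in Aff3ir-ORF2-/- cells. These ranges overlapped, and the log2 fold change of 0.16 (95% interval -0.44 to 0.76, edgeR adjusted p = 0.604) turned to -0.14 without Aff3ir-ORF2-/- replicate 3. Cxcl15 had at most 6 counts in a library. In Aff3ir-ORF2-/- replicate 3, all 4 tested ELR ligands that were chosen by symbol had their highest level among the knockout libraries.

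Cxcl10 and Ccl5, which are known to be inducible by interferon, were lower, and Cxcl9 was hardly detected. The other ligands were not grouped by this trait. Cxcl10, which attracts T cells through Cxcr3, was counted between 49 and 63 times in WT libraries and between 7 and 18 times in Aff3ir-ORF2-/- libraries, a 5.03-fold lower level with no overlap (log2 fold change -2.33, SE 0.29, edgeR adjusted p = 0.000128). Cxcl9, a ligand of the same receptor, had 3 counts or fewer in every library. Cxcr3 itself was at 0 in WT and was counted 3, 2 and 1 times in Aff3ir-ORF2-/- cells. Ccl5, which binds Ccr1 and is likewise known to be inducible by interferon, was counted 35 to 44 times in WT libraries and 6 to 12 times in the knockout libraries, 4.22-fold lower and again without overlap (SE of the log2 value 0.28, edgeR adjusted p = 0.000214). By RT-PCR, the paper reports significantly higher Ccl5 and Cxcl10 mRNA in Aff3ir-ORF2-/- MEFs than in WT, opposite to the direction here. The cause of this difference was not tested. The Cxcl10 gene overlaps Art3 in the RefSeq annotation, and how the counting handled reads shared by overlapping genes is not known.

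The largest relative gains were among other CC ligands, most of them known to bind Ccr1. Ccl6, a macrophage-derived attractant of mice, was counted 2, 4 and 5 times in WT and 217, 248 and 412 times in Aff3ir-ORF2-/- cells. This was a log2 fold change of 6.19 (SE 0.45, edgeR adjusted p = 3.45e-05). Ccl9, also known as MIP-1 gamma and a ligand of Ccr1, was counted 24, 25 and 22 times in WT and 390, 461 and 792 times in Aff3ir-ORF2-/- cells. The log2 fold change of Ccl9 was 4.45 (SE 0.41, edgeR adjusted p = 0.000293). Both genes were highest in Aff3ir-ORF2-/- replicate 3 and lowest in replicate 1, and all knockout libraries lay far above the WT range. Ccl3, or MIP-1 alpha, was counted 1, 1 and 0 times in WT and 38, 54 and 55 times in Aff3ir-ORF2-/- cells. With WT at or under 3 counts in each library, the fold is given as the ratio of scaled counts, 69.6 with an exact 95% interval of 18.9 to 580 that covers counting error only (edgeR adjusted p = 1.10e-05). Its neighbour Ccl4, or MIP-1 beta, did not pass the filter and was counted 0, 0 and 2 times in WT and 7, 17 and 17 times in Aff3ir-ORF2-/- cells, a ratio of 19.4 (exact interval 5.05 to 166). Ccl3 and Ccl4 overlap in the RefSeq annotation, so reads of the pair may be hard to part.

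These genes are neighbours of Ccl5. In gene order on chromosome 11, Ccl5 is followed by Ccl9, Ccl6, Ccl3 and Ccl4, so that a lower gene stood beside 3 called higher genes and 1 untested one with higher counts. On chromosome 5 the order is Cxcl5, Ppbp, Pf4, Cxcl3, Cxcl15, Cxcl1 and Cxcl2, with the lower Cxcl1 between the higher Cxcl3 and Cxcl2. The other chromosome 11 cluster, from Ccl2 through Ccl7, Ccl11 and Ccl12 to Ccl8, held no lower gene. Of these 3 clusters, 2 therefore held called genes of both directions.

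**Figure D3:**
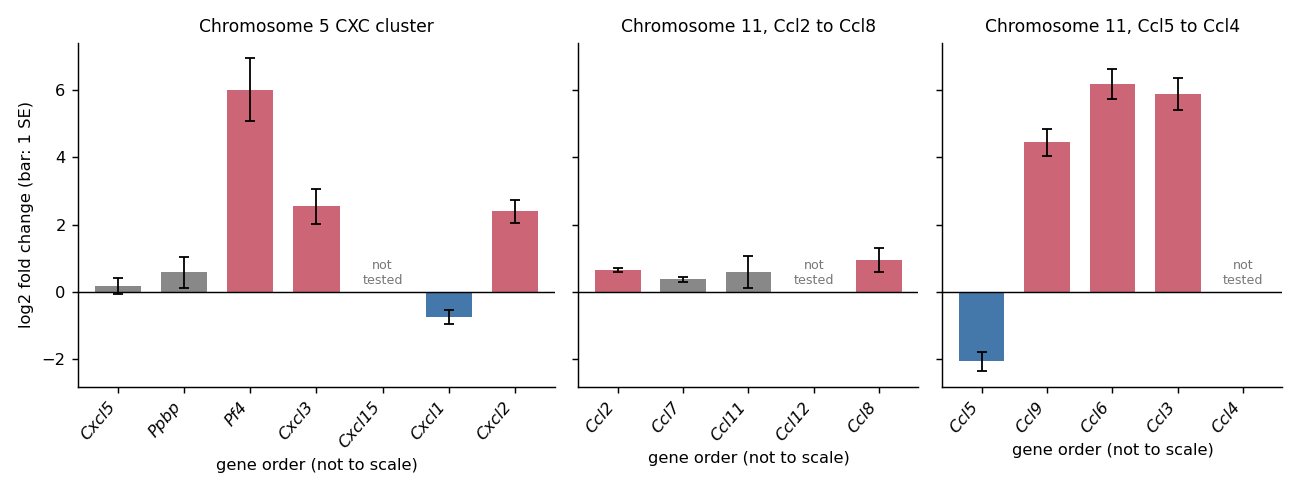
Log2 fold change, Aff3ir-ORF2-/- over WT, of the genes of 3 chemokine clusters in their order on the chromosome (not to scale), with error bars of 1 SE. Red bars are called higher, blue lower and grey not called; Ccl5 (-2.08) stands beside Ccl9 (4.45), and Cxcl1 (-0.76) between Cxcl3 (2.55) and Cxcl2 (2.39), with the untested Cxcl15 in between.

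Of the ligands named monocyte chemoattractant proteins (MCP), Ccl2 and Ccl8 were called higher, Ccl7 stayed under the 1.5-fold limit and Ccl12 was not tested. Ccl2, or MCP-1, was counted 2539, 2745 and 2333 times in WT and 3872, 4504 and 4139 times in Aff3ir-ORF2-/- cells. The genotypes did not overlap, and the log2 fold change was 0.64 (SE 0.07, edgeR adjusted p = 4.73e-05), close to the 1.5-fold limit. Without WT replicate 3 or without Aff3ir-ORF2-/- replicate 2 it was 0.58 in both cases and fell under that limit. Ccl7, or MCP-3, was counted 1529, 1591 and 1429 times in WT and 1877, 2332 and 1989 times in Aff3ir-ORF2-/- cells. Its log2 fold change of 0.37 (SE 0.07, edgeR adjusted p = 0.00255) passed the test and not the 1.5-fold limit. Ccl8, or MCP-2, was counted 18, 27 and 21 times in WT and 39, 69 and 27 times in Aff3ir-ORF2-/- cells, so that the genotypes touched. It was called at a log2 fold change of 0.95 (SE 0.35, edgeR adjusted p = 0.0433). That call was lost without WT replicate 1, 2 or 3 and without Aff3ir-ORF2-/- replicate 1 or 2, with edgeR adjusted p from 0.0637 to 0.143 and a log2 fold change of 0.51 without Aff3ir-ORF2-/- replicate 2. Ccl12, or MCP-5, was at 0 in WT and was counted 4, 8 and 0 times in Aff3ir-ORF2-/- cells. Ccl11, or eotaxin, was counted 19, 25 and 30 times in WT and 25, 72 and 21 times in Aff3ir-ORF2-/- cells and was not called (log2 fold change 0.59, 95% interval -0.54 to 1.72, edgeR adjusted p = 0.330). Its sign rested on Aff3ir-ORF2-/- replicate 2, without which it was -0.17.

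Among the CXC ligands without the ELR motif, Cxcl12, known for retaining blood stem cells in the marrow, had the most counts of any member. It was counted 3385, 3441 and 3393 times in WT and 4857, 5199 and 5108 times in Aff3ir-ORF2-/- cells. The libraries of a genotype lay close together, and the log2 fold change of 0.49 (SE 0.04, edgeR adjusted p = 1.12e-05) was under the 1.5-fold limit. Cxcl14, a chemokine of epithelia and fibroblasts, was counted 415, 415 and 383 times in WT and 983, 1599 and 679 times in Aff3ir-ORF2-/- cells. All knockout libraries were above WT but differed among themselves by 2.32-fold, and the log2 fold change was 1.35 (SE 0.33, edgeR adjusted p = 0.0170). Cxcl16, a membrane-anchored ligand of Cxcr6 that also serves as a scavenger receptor, was counted 46, 56 and 44 times in WT and 165, 231 and 226 times in Aff3ir-ORF2-/- cells. For Cxcl16 the log2 fold change was 2.01 (SE 0.17, edgeR adjusted p = 1.13e-05). Cxcl16 overlaps Zmynd15 in the RefSeq annotation, which was itself higher by 1.51 on the log2 scale. Cxcl17 had at most 1 count.

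Ligands of mucosal and skin-homing receptors were few. Ccl20, the ligand of Ccr6, was counted 6, 9 and 7 times in WT and 63, 93 and 54 times in Aff3ir-ORF2-/- cells. The groups did not overlap, and the log2 fold change was 3.15 (SE 0.31, edgeR adjusted p = 2.84e-05). Ccl28, a mucosal ligand of Ccr3 and Ccr10, was counted 22, 20 and 24 times in WT and 16, 13 and 10 times in Aff3ir-ORF2-/- cells. Its log2 fold change of -0.83 (SE 0.28, edgeR adjusted p = 0.0292) did not hold with DESeq2 (adjusted p = 0.122), nor without WT replicate 1, 2 or 3 or Aff3ir-ORF2-/- replicate 3 (edgeR adjusted p 0.0529 to 0.0966). Ccl25, known from thymus and gut, was counted 25, 35 and 27 times in WT and 14, 24 and 32 times in Aff3ir-ORF2-/- cells and was not called (log2 fold change -0.39, 95% interval -1.07 to 0.30). Ccl27a and Ccl27b, near-identical copies in the mouse genome, were not called either, at 16 to 27 and 0 to 27 counts in a library. Their values are uncertain because reads can be split between copies and because Ccl27a overlaps Il11ra1 and Ccl27b overlaps Il11ra2. Cx3cl1, or fractalkine, the only ligand of its class in the table, was counted 139, 148 and 153 times in WT and 155, 182 and 236 times in Aff3ir-ORF2-/- cells. Although all knockout libraries were above WT in counts, they overlapped after scaling, and the log2 fold change of 0.30 (95% interval -0.03 to 0.64, edgeR adjusted p = 0.108) was not called. Ccl17, Ccl19 and Ccl21a had at most 2 counts in any library.

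Of the receptors, Cxcr4 changed most. This receptor of Cxcl12 was counted 5, 6 and 2 times in WT and 117, 116 and 151 times in Aff3ir-ORF2-/- cells. The knockout libraries lay close together and far above WT, with a log2 fold change of 4.77 (SE 0.29, edgeR adjusted p = 2.02e-06). Ackr3, the atypical receptor that also binds Cxcl12, was counted 46, 50 and 39 times in WT and 197, 283 and 356 times in Aff3ir-ORF2-/- cells. Its log2 fold change was 2.55 (SE 0.24, edgeR adjusted p = 5.48e-05). By mean level, Ackr3 led the receptors per kilobase in both genotypes, at 0.842 CPM per kilobase in WT and 4.94 in Aff3ir-ORF2-/- cells. Its libraries overlapped those of Cxcr6 in WT and those of Cxcr4 in Aff3ir-ORF2-/- cells, so neither lead was beyond the spread. By the same measure Cxcr4 went from 0.138 to 3.86 and from rank 4 to rank 2 of 18.

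Ccr1, a receptor of Ccl3, Ccl5, Ccl6 and Ccl9 on myeloid cells, was counted 25, 33 and 32 times in WT and 128, 115 and 183 times in Aff3ir-ORF2-/- cells. Every knockout library was above WT, at a log2 fold change of 2.16 (SE 0.22, edgeR adjusted p = 3.70e-05). Cx3cr1, the fractalkine receptor of monocytes, tissue macrophages and microglia, was counted 1, 1 and 2 times in WT and 11, 23 and 19 times in Aff3ir-ORF2-/- cells. With WT under the floor of 3 counts, the ratio of scaled counts was 12.6 (exact 95% interval 4.62 to 47.8, edgeR adjusted p = 0.000463). Cxcr6, the receptor of Cxcl16, was counted 20, 22 and 25 times in WT and 28, 24 and 19 times in Aff3ir-ORF2-/- cells. These ranges overlapped, and the log2 fold change was 0.0061 (95% interval -0.56 to 0.57, edgeR adjusted p = 0.984). Cxcr6 overlaps Fyco1 in the annotation, so its counts may hold reads of that gene.

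**Figure D4:**
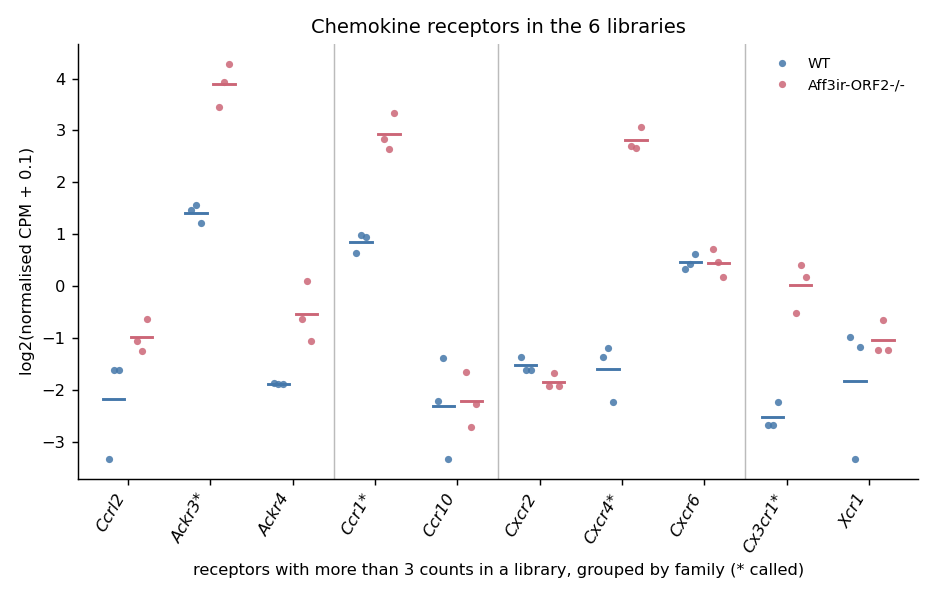
Level of 10 receptors with more than 3 counts in a library, as log2 of normalised CPM plus 0.1, with 1 point per library and a bar at the genotype mean. Vertical lines part atypical, CC, CXC and other receptors, and asterisks mark called genes; Ackr3, Ccr1 and Cxcr4 stand clear of WT in all 3 knockout libraries, and Cxcr6 overlaps.

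The other 13 receptors were too low to be tested, and most of them are given here. Ackr4, which scavenges Ccl19, Ccl21 and Ccl25, was counted 3 times in each WT library and 10, 18 and 7 times in the knockout libraries, a ratio of 3.68 (exact interval 1.74 to 8.72). Fitted without a filter, edgeR called Ackr4 and Ccl4 higher. Ackr4 overlaps Acad11 in the RefSeq annotation, so its counts may hold reads of that gene. Ccrl2, an atypical receptor that binds chemerin, was counted 0, 4 and 4 times in WT and 7, 6 and 10 times in Aff3ir-ORF2-/- cells. Cxcr2, through which the ELR ligands act, was counted 4 or 5 times in WT libraries and 3 or 4 times in the knockout libraries. Ccr2, the receptor of Ccl2 and Ccl7, had at most 1 count in any library, although these ligands led the list per kilobase of the longest transcript. Xcr1, known from cross-presenting dendritic cells, had 0 to 10 counts, and Ccr10, Ccr9 and Ccr3 had at most 5, 3 and 2. Ackr1, Cxcr1 and Cxcr5 had at most 1. For receptors with at most 5 counts in a library, a difference was not detectable at this depth.

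Set side by side, ligands and their receptors moved in different combinations. Cxcl12 passed the test under the 1.5-fold limit while Cxcr4 and Ackr3 were both called. Ccr1 was called with 3 of its ligands higher (Ccl3, Ccl6 and Ccl9) and 1 lower (Ccl5). Cxcl16 was higher while Cxcr6 was not called, and Cx3cr1 was higher while Cx3cl1 was not called.

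The higher members differed in how they spread over the knockout libraries. Of the 14 called higher, 8 were highest in Aff3ir-ORF2-/- replicate 3, 6 in replicate 2 and none in replicate 1. The summed macrophage markers were also highest in replicate 3 and lowest in replicate 1. Ccl3, Ccl6, Ccl9 and Ackr3 had that same order of highest and lowest library. Ccl8, Ccl20 and Cxcl14 were highest in replicate 2 and lowest in replicate 3. With 3 libraries no test of these orders was made.

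**Figure D5:**
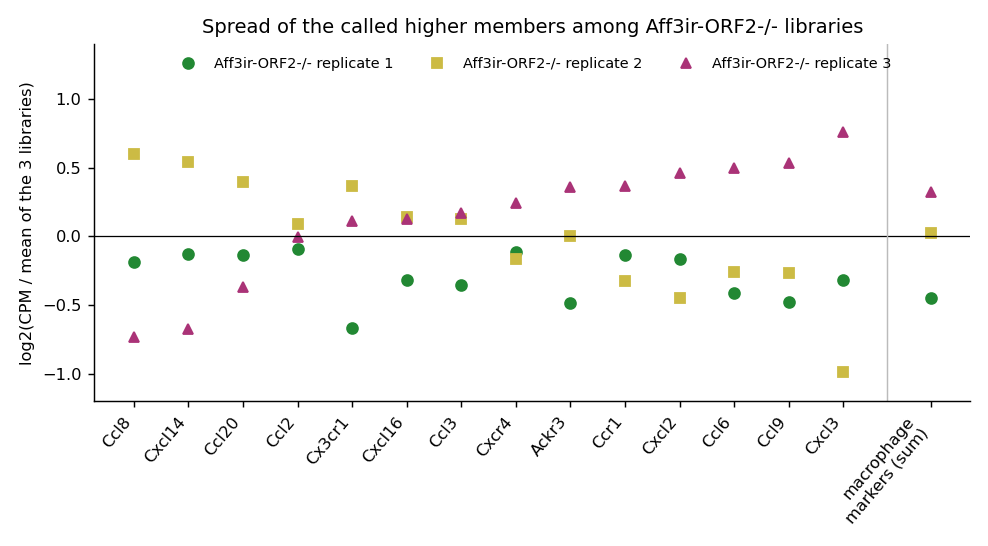
Level of the 14 called higher members in each Aff3ir-ORF2-/- library, as log2 of CPM over the mean of the 3 libraries, beside the summed macrophage markers. Replicate 3 (triangles) is lowest for Ccl8, Cxcl14 and Ccl20 at the left and highest from Ccl3 rightward.

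Genes that act on or after chemokines were read from lists written by hand. Of the chemokine signalling genes, which carry the signal of the receptors into the cell, 19 of 54 tested were higher and 2 were lower, or 35.2% and 3.7% against 14.2% and 7.27% of all tested genes. The smallest adjusted p values belonged to Vav1, a Rac activator of blood cells, Pik3cg, a lipid kinase that G proteins activate (log2 fold change 3.99), and Dock2, which drives leukocyte migration (6.55). Next came Stat3 (0.63), the arrestin Arrb1 (1.14) and the kinase Prkcb (2.69). Vav1 was counted 1, 1 and 0 times in WT and 141, 210 and 241 times in Aff3ir-ORF2-/- cells, a ratio of scaled counts of 280 (exact 95% interval 77.3 to 2321). Vav1, Pik3cg, Dock2 and other higher genes of this list had fewer than 10 counts in every WT library. Such genes passed the filter only through the knockout libraries and could only come out higher, so the 35.2% describes the tested genes and is raised by them. Stat3 was counted 3246, 3122 and 3212 times in WT and 4964, 5478 and 5163 times in Aff3ir-ORF2-/- cells. The lower genes were Jak2 (-0.62) and Rgs16 (-1.08), a brake on G protein signalling, both named after their values were seen. Of genes whose products cut, bind or present chemokines, 5 of 23 tested were higher and 1 was lower, or 21.7% and 4.35%, near the shares of 14.2% and 7.27% over all genes. The higher ones were the cathepsins Ctss (7.52) and Ctsb (1.02), the heparan sulfate carrier Sdc4 (1.17) and the proteases Mmp12 (2.04) and Mmp8 (2.47). The lower one was Gpc1 (-0.68), another heparan sulfate carrier. Ctss is also among the macrophage markers.

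Of 35 regulators of chemokine transcription, all tested, 8 were higher and 7 were lower, or 22.9% and 20% against 14.2% and 7.27% of all tested genes, and the median log2 fold change was 0.12. Egr1, an early response factor, was counted 6445, 6662 and 5595 times in WT and 846, 800 and 1018 times in Aff3ir-ORF2-/- cells (log2 fold change -2.89). Nfkbiz (-0.92), a nuclear partner of NF-κB, Zfp36 (-1.41), which destabilises cytokine and chemokine mRNAs, and Tnfaip3 (-1.05), an inhibitor of NF-κB signalling, were lower as well. Irf8, a myeloid interferon regulatory factor, was counted 2, 4 and 0 times in WT and 82, 125 and 153 times in Aff3ir-ORF2-/- cells (5.75). It passed the filter on low counts only through the knockout libraries. By RT-PCR, the paper reports that Irf8 expression was not affected in Aff3ir-ORF2-/- MEFs, and the cause of this difference was not tested. The kinase Ikbke was also higher (1.17). Regulators that raise and that restrain chemokine mRNA were found among these lower genes.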

How the data were processed

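RNA of 6 MEF samples, 3 of each genotype, was sequenced as paired-end reads on a DNBSEQ instrument, and SOAPnuke was used to filter them. Values were deposited by the authors as estimated counts per gene and library, not normalised; the aligner and counter are not given in the sources used here, and the submitters' processing notes name the build mm8 without saying what for. All values were rounded, since 10.6% to 11.3% in each library had a fraction. All 6 value columns of the table were used. Samples were grouped by their labels.

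In edgeR 4.0.16 (R 4.3.3), low genes were removed by filterByExpr at a minimum count of 10 and a minimum total of 15, libraries were scaled by TMM, and 13075 genes were tested by the quasi-likelihood test with a robust prior and Benjamini-Hochberg adjustment. The SE is the log2 fold change over the square root of F. A genotype with at most 3 counts in every library was taken as at the floor. Exact intervals of ratios and floors cover counting error only, while intervals of log2 fold changes come from the edgeR fit and include the spread between libraries. Alternatives used limma 3.58.1 and DESeq2 1.42.0, other scalings and filters, the replicate number as a block and leaving out each library. The functions were tested on simulated data. Promoter windows (37 of 48 members matched) came from RefSeq on GRCm38.p6, transcript lengths from GENCODE M21. Tables and figures used Python 3.11.15 with pandas 2.3.3 and matplotlib 3.10.9.

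The members and lists were chosen with earlier results of these data known. Every member was analysed, and 1 low receptor is not reported here. Called and abundant members were named with their values, and up to 6 genes of a list by adjusted p and up to 4 markers of a cell type were named. Further macrophage markers at 0 or at low counts in WT, Jak2, Rgs16, S100a8 and some chemoattractants outside the symbol rule were named after their values were seen.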

Additional observations from a re-analysis of the deposited data

How the results depend on the processing

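The counts of 10 higher and 4 lower ligands and of 4 higher and 0 lower receptors stayed within 1.5 times under other scalings, no filter, DESeq2, limma voom, the adjusted p alone, a prior without robust estimation (an alternative chosen after seeing the data) and each left-out library. Where every library had to hold at least 10 counts of a gene, 6 ligands were higher and 2 lower and 2 receptors were higher, because members with fewer than 10 counts in a library were then not tested. Leaving out 1 library gave 8 to 10 higher and 3 to 4 lower ligands. With the replicate number as a block the counts were 10, 4, 4 and 0. Deviations of same-numbered samples correlated by 0.0386, 0.0424 and 0.0145, so the numbers were not taken to pair the samples. Each sample did correlate best with its own number, a hint from the data and not from the design. The block gave 2808 calls over all genes in place of 2802.

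Signs turned only for members that were not called. These were Ccl11 (-0.17 at the lowest and 0.89 at the highest over all alternatives, negative without Aff3ir-ORF2-/- replicate 2), Cxcl5 (-0.14 to 0.30, negative without Aff3ir-ORF2-/- replicate 3), Ccl27b (-0.26 without WT replicate 2, -0.69 without Aff3ir-ORF2-/- replicate 2 and 1.32 without WT replicate 1) and Cxcr6. Cxcr6 stood at -0.0083 without a filter, at -0.0084 with limma voom and between -0.14 and 0.14 with a library left out. The cause of these turns was not tested. Low counts limit the receptors most.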

Other observations

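Genes outside the symbol rule that act as chemoattractants were listed too, and 3 of 11 tested were called higher, or 27.3% against 14.2% of all tested genes. Pf4, or Cxcl4, the platelet factor that is also made by some macrophages, was counted 1, 0 and 0 times in WT and 18, 22 and 53 times in Aff3ir-ORF2-/- cells, with a ratio of scaled counts of 88.1 (exact 95% interval 15.4 to 3517, edgeR adjusted p = 0.000613). Pf4 passed the filter only through the knockout libraries, so it could only come out higher. Its neighbour Ppbp, or Cxcl7, was counted 144, 120 and 158 times in WT and 209, 102 and 355 times in Aff3ir-ORF2-/- cells and was not called. Rarres2, which encodes the attractant chemerin, was counted 7, 11 and 8 times in WT and 30, 36 and 20 times in Aff3ir-ORF2-/- cells, with a log2 fold change of 1.63 (SE 0.33, edgeR adjusted p = 0.00234). Its receptor Cmklr1 was counted 44, 52 and 43 times in WT and 65, 95 and 103 times in Aff3ir-ORF2-/- cells, with a log2 fold change of 0.84 (SE 0.20, edgeR adjusted p = 0.00534). Mif, a cytokine that can bind Cxcr4, was counted 2326, 2224 and 2144 times in WT and 2396, 2406 and 2482 times in Aff3ir-ORF2-/- cells and was not called (log2 fold change 0.04, SE 0.05, edgeR adjusted p = 0.461). In both directions, genes passed the test under the 1.5-fold limit: Cmtm6 (0.36) and Cklf (0.41) were higher at an edgeR adjusted p of 0.00085 and 0.0129. Cmtm3 (-0.34) and Hmgb1 (-0.20) fell by less than the 1.5-fold limit at an edgeR adjusted p of 0.000334 and 0.00407.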
